A study of Mus musculus with 9 samples.

Results

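Aldehyde dehydrogenases are enzymes that oxidise aldehydes to carboxylic acids with NAD+ or NADP+ as the acceptor. Some of them act on single physiological substrates, such as retinaldehyde on the way to retinoic acid, formyl groups carried by folate, or betaine aldehyde made from choline. Others clear aldehydes of alcohol and fat metabolism, including those that form when membrane lipids are oxidised, a reaction that heme iron can drive in the gut lumen. The 10 genes described here, Aldh1a1, Aldh1a2, Aldh1a3, Aldh1b1, Aldh1l1, Aldh2, Aldh3a1, Aldh3a2, Aldh7a1 and Aldh9a1, were chosen by name, each through its probeset with the highest mean. All 10 of them were found among the 19938 genes measured, each with 1 probeset, and 9 were bright enough to be among the 14953 genes tested. Aldh3a1 lay below the filter at 4.716 log2. A further 11 aldehyde dehydrogenase genes were measured, of which 9 were tested, and they are given for comparison.

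RNA came from scrapings of the colon lining of male C57BL/6J mice, 9 to 11 weeks old, that all first ate a control diet with 40% of its energy as fat for 1 week. The control groups then stayed on that diet and were killed on days 0, 2, 4, 7 and 14, while the heme groups received it with 0.2 µmol heme per g and were killed on days 2, 4, 7 and 14. No group ate a diet low in fat. RNA of 4 mice (3 for the control group of day 2) was pooled before it was hybridised, so each diet and day is 1 array, with 5 control and 4 heme pools in all. The series title asks which responses to dietary heme are immediate and which are delayed, and the comparisons below follow the aldehyde dehydrogenases through that time course. Values are log2 expression, a difference of 1 being 2-fold. Called means an adjusted p under 0.05 in limma over all genes tested. Since no diet and day has a 2nd pool, every p-value rests on variation between days and says nothing of single animals. In most fits this is how pools of 1 diet differ from day to day. In fits with the day as a block it is how the same-day difference between the diets varies from day to day. A lower level can mean less RNA per cell or fewer of the cells that make it, which bulk RNA cannot tell apart.

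Epithelial markers were bright and level, with a list mean of 11.87 to 11.91 in control pools and 11.90 to 11.95 in heme pools. Markers of other cells were present too and overlapped between the diets. In the diet comparison 0 were called on any of the 12 marker lists, beside 0.669% of all genes tested. At so low a share, 0 calls on short lists do not show that the cell make-up was equal. Marker calls on single days were not counted. Smooth muscle markers ranged from 7.25 to 9.90 in control and 7.09 to 9.18 in heme pools, and fibroblast markers from 7.67 to 8.84 and 7.58 to 8.51. Genes of the exocrine pancreas stood at 8.97 and 9.50 in the day 2 pools of control and heme, against 5.35 to 5.51 in the other 7 pools.

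Between the diets, Aldh1a1 was the single tested gene of the 9 that was called, and it was higher on heme. The other differences ran from -0.22 for Aldh1l1 to 0.47 for Aldh9a1, and the median of the 9 was 0.02, beside -0.002 over all genes tested. Of all genes tested, 0.669% were called between the diets, 89 higher and 11 lower. The 4 heme pools did not overlap the 5 control pools for 4 of the 9 genes, Aldh1a1, Aldh3a2 and Aldh9a1 on the higher side and Aldh1l1 on the lower, while 5.60% of all genes showed no overlap. In 6 of the 9 the heme pool lay on the same side of its day's control pool on all 4 days, which 23.0% of all genes did.

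**Figure D1:**
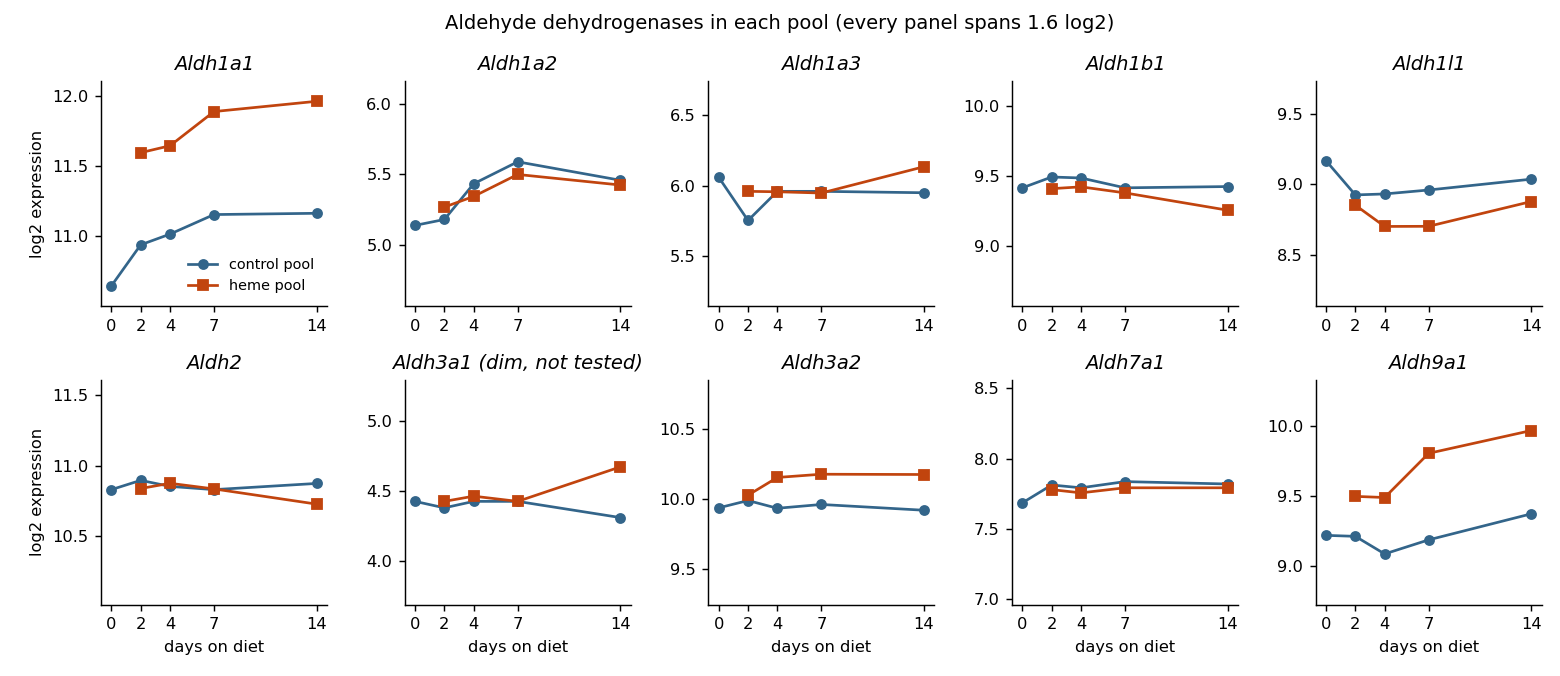
Log2 expression (vertical axis) of the 10 aldehyde dehydrogenases in every pool by days on diet (horizontal axis), circles for control and squares for heme, 1 pool per point; each panel spans the same 1.6 log2 range around its own centre. The heme pools of Aldh1a1 and Aldh9a1 lie above all control pools, those of Aldh1l1 below, and the diets overlap for the other genes except Aldh3a2.

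Aldh1a1 encodes the main cytosolic retinaldehyde dehydrogenase, which also oxidises aldehydes of lipid peroxidation. Its probeset (10461979, chromosome 19) read 10.65, 10.94, 11.02, 11.15 and 11.16 in the control pools of days 0, 2, 4, 7 and 14. In the heme pools of days 2, 4, 7 and 14 it read 11.59, 11.64, 11.89 and 11.96. The lowest heme pool stood 0.43 above the highest control pool, and both diets were higher on later days. The means were 11.77 ± 0.18 (SD, n = 4) and 10.98 ± 0.21 (SD, n = 5), a difference of 0.79 log2 (SE 0.11, 95% interval 0.54 to 1.04) or 1.73-fold with an adjusted p of 0.0133. The call was lost when the day 4 control pool (adjusted p = 0.0541), the day 7 heme pool (0.0629) or the day 14 heme pool (0.0534) was left out, and when both day 7 pools were (0.108), while the difference stayed between 0.70 and 0.85 in the 9 fits without 1 pool. With the day as a block, as control and heme pools share a day though not animals, it was 0.70 with an adjusted p of 0.00371.

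Aldh1a1 stood above its control on the first heme day, though not past the test. Heme minus control of the same day was 0.65 on day 2, 0.63 on day 4, 0.73 on day 7 and 0.80 on day 14, with a mean of 0.70 ± 0.08 (SD, n = 4). These values lie close together, and the difference of days 7 and 14 exceeded that of days 2 and 4 by 0.12 (adjusted p = 0.774). Set against all 5 control pools, the heme pools of days 2, 4, 7 and 14 were 0.61, 0.66, 0.90 and 0.97 higher (adjusted p = 0.434, 0.554, 0.0764 and 0.0159), and of these only day 14 was called. Within the control diet Aldh1a1 was 0.52 higher on day 14 than on day 0, a slope of 0.14 per doubling of day + 1 (SE 0.02, adjusted p = 0.677). No gene had a called slope in limma (0% of those tested; 1073 had an unadjusted p under 0.05).

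The genes whose levels ran most like Aldh1a1 over the 9 pools were Fabp2, the intestinal fatty acid binding protein (Pearson r = 0.994), Fam162a, a mitochondrial protein (r = 0.989), and Mpst, a sulfurtransferase (r = 0.988). Fabp2 read 10.93, 11.17, 11.11, 11.27 and 11.32 in control pools and 11.71, 11.75, 11.99 and 11.99 in heme pools, the same order of diets and nearly the same order of days. The points share diet and day, and these r values describe 9 arrays with no test.

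Aldh1a7 is a close rodent relative of Aldh1a1 and lies beside it on chromosome 19, with 3 annotated genes between them, 0 of them protein coding. It is not among the 10 but was the other aldehyde dehydrogenase called between the diets. Its probeset (10466624) read 7.51, 7.76, 7.53, 7.79 and 7.94 in control and 8.26, 8.33, 8.96 and 8.87 in heme pools, with every heme pool above every control pool. The difference was 0.90 log2 (SE 0.15, 1.87-fold, adjusted p = 0.0316). The call was lost in 7 of the 9 fits without 1 pool, the exceptions being the heme pools of days 2 and 4, with adjusted p up to 0.114, and without both pools of day 7 (0.21). On day 7 it was 1.26 above the control mean (adjusted p = 0.0333, and 0.0626 to 0.102 with any control pool left out) and on day 14 it was 1.16 above it (adjusted p = 0.0081).

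The upstream sequences of this pair are shown because both genes were called higher and share a stretch there. RefSeq lists 2 starts for Aldh1a1. The start shown was picked for the longest run shared with Aldh1a7 and is also the nearer one to that gene. The sequences below hold the 150 bases before that start and before the start of Aldh1a7, 5′ to 3′ on the strand of each gene. They are from GRCm38.p6, chr19:20601818-20601967 on the plus and chr19:20727557-20727706 on the minus strand. Capitals mark their longest identical run, 65 bases at positions -94 to -30 from the start in both.
Aldh1a1: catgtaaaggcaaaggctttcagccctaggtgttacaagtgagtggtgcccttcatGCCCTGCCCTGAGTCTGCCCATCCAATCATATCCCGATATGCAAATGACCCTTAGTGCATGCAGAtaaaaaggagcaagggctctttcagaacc
Aldh1a7: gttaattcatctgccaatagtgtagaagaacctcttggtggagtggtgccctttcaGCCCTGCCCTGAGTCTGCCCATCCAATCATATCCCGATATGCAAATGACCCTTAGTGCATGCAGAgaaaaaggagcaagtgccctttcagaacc
Over the whole 300-base windows of RefSeq, which also hold 50 bases after the start, the pair was 72.4% identical over 322 aligned columns. That is the higher identity of the 2 Aldh1a1 starts. Which Aldh1a1 start the colon used was not measured. The transcripts are also alike, and how much probes of one gene read RNA of the other was not tested, as probe sequences were not used here.

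The other retinaldehyde dehydrogenases, Aldh1a2 and Aldh1a3, were not called. Aldh1a2, the form of many stromal and embryonic tissues (probeset 10586865, chromosome 9), read 5.14, 5.18, 5.43, 5.59 and 5.46 in control pools and 5.27, 5.34, 5.50 and 5.42 in heme pools. Its diets overlapped, with a difference of 0.02 (95% interval -0.19 to 0.24, adjusted p = 0.907) that was -0.03 with the day as a block. Its lower pools were those of days 0 and 2 on control and of day 2 on heme, where fibroblast markers averaged 8.06, 7.67 and 7.58, beside 8.53, 8.42 and 8.84 in the later control pools and 7.97, 8.51 and 8.26 in the later heme pools. The part of stromal cells in the Aldh1a2 level was not tested.

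Aldh1a3, another retinaldehyde dehydrogenase (probeset 10564417, chromosome 7), read 6.06, 5.75, 5.96, 5.96 and 5.95 in control and 5.96, 5.96, 5.95 and 6.13 in heme pools. The diets overlapped, and the difference was 0.06 (95% interval -0.09 to 0.22, adjusted p = 0.631). The interval of each of these 2 genes lies below that of Aldh1a1, whose lower end was 0.54. Both were much dimmer than Aldh1a1. The mean of Aldh1a2 was at percentile 36.3 and that of Aldh1a3 at percentile 46.1 of all genes measured, against 99 for Aldh1a1. The filter at the 50th percentile left both untested. Whether so low a signal hides a difference was not tested.

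Around retinaldehyde, 4 retinoid genes were called between the diets, all higher, as were 89 of the 100 called over all genes (0.669% of those tested). Of 14 tested alcohol and retinol dehydrogenases, which make retinaldehyde and related carbonyls or reduce them back, 1 rose, Dhrs4, a peroxisomal carbonyl reductase (0.32, adjusted p = 0.0187), and 0 fell. Of 20 tested genes of retinoid binding, storage, breakdown and reception, 3 rose and 0 fell. They were Rbp2, the intestinal retinol binding protein (0.72, adjusted p = 0.0187), Retsat, a retinol saturase (0.51, adjusted p = 0.00601), and Scarb1, a receptor that takes up lipoprotein lipid and carotenoids (0.56, adjusted p = 0.0313). Dhrs9, a retinol dehydrogenase, was at 0.57 with an adjusted p of 0.229, and the retinoic acid receptors Rara, Rarb and Rarg at -0.17, -0.07 and -0.002 (adjusted p = 0.199, 0.651 and 0.99). The list medians were -0.02 and 0.03.

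Aldh9a1 oxidises the aldehyde intermediates of carnitine synthesis and of polyamine and choline breakdown, and had the next largest difference. Its probeset (10351414, chromosome 1) read 9.22, 9.21, 9.09, 9.19 and 9.37 in control and 9.50, 9.49, 9.80 and 9.97 in heme pools. All heme pools lay above all control pools, by 0.12 at the nearest, and the pools of days 7 and 14 stood apart from the earlier ones. The means were 9.69 ± 0.24 (SD, n = 4) and 9.22 ± 0.10 (SD, n = 5), a difference of 0.47 (SE 0.10, 1.39-fold) with an adjusted p of 0.0758, which missed the threshold. With the day as a block the difference was also 0.47 and was called (adjusted p = 0.0351). It was called once the day 2 heme pool was left out (0.54, adjusted p = 0.0337), where all genes called went from 100 to 251. That was the 1 call in the 9 fits without 1 pool, with adjusted p up to 0.247 in the others. The difference was not called without both pools of day 7 (adjusted p = 0.436) or with no intensity trend (0.112).

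By day, Aldh9a1 was 0.28 above its same-day control on day 2, 0.40 on day 4, 0.62 on day 7 and 0.59 on day 14. Against all control pools, day 7 was 0.59 higher (adjusted p = 0.0477) and day 14 0.75 higher (adjusted p = 0.0065). The call of day 7 was lost without any one of the 5 control pools (adjusted p = 0.0626 to 0.129), and that of day 14 held in each of those fits (0.0133 to 0.0229). The late difference exceeded the early one by 0.26, which did not pass (adjusted p = 0.757). No gene did in that comparison (0% in limma, 990 at an unadjusted p under 0.05), so no split into immediate and delayed genes is made here.

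**Figure D2:**
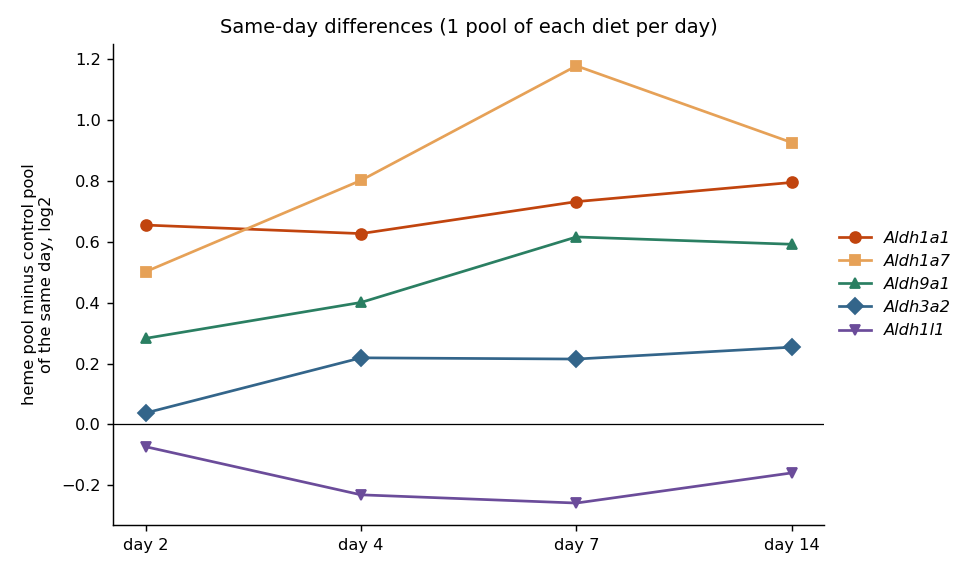
Heme pool minus control pool of the same day in log2 (vertical axis) for Aldh1a1, Aldh1a7, Aldh9a1, Aldh3a2 and Aldh1l1 on days 2, 4, 7 and 14 (horizontal axis, evenly spaced), with 1 pool of each diet behind each point and no error. Aldh1a1 starts at 0.65 and ends at 0.80, Aldh9a1 goes from 0.28 to 0.59, and Aldh1l1 is below 0 on all 4 days.

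The promoter of Aldh9a1 held the core of the antioxidant response element, TGACNNNGC, the site of Nrf2 and small Maf proteins, which drive many enzymes against electrophiles. It is shown for that match, as the 150 bases before the RefSeq start (GRCm38.p6, chr1:167349841-167349990, plus strand, 5′ to 3′) with the matched letters in capitals, from position -87 to -79.
Aldh9a1: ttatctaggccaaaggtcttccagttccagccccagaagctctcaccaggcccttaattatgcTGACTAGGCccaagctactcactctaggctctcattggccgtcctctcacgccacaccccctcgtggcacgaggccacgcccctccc
On either strand of the 300-base windows that core was found in 12.4% of 32851 RefSeq promoters, so a match is common. Promoters were listed for 6 of the 10 genes, and 2 of them held it, Aldh9a1 and Aldh1a2. Over all aldehyde dehydrogenases with a listed promoter it was 2 of 15, the same 2 genes, which is near the share of all promoters. The nuclear receptor core AGGTCA, in 16.3% of promoters, was found in 1 of the 6, Aldh1l1. A pair of these cores in the same direction with 1 base between them, AGGTCANAGGTCA, the form that PPAR and RXR bind, was found in 0 of the 6 and in 0.0396% of all promoters; such a pair also counts as a single core. Neither Aldh1a1 start, nor Aldh1a7, Aldh3a2 or Aldh1b1, held any of these letters in the window.

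Aldh3a2, the fatty aldehyde dehydrogenase of the endoplasmic reticulum and peroxisome, which also completes the breakdown of sphingosine, showed a small difference, least on day 2. Its probeset (10386652, chromosome 11) read 9.94, 9.99, 9.93, 9.96 and 9.92 in control and 10.03, 10.15, 10.18 and 10.17 in heme pools. The heme pool of day 2 lay 0.04 above the highest control pool and the other 3 heme pools close together above it. The means were 10.13 ± 0.07 (SD, n = 4) and 9.95 ± 0.03 (SD, n = 5), and the difference of 0.18 (SE 0.04, 1.14-fold) had an adjusted p of 0.0563. It was called after leaving out the day 2 heme pool (0.22, adjusted p = 0.00689), without both pools of day 2 (0.23, 0.0139), with arrays centred on their medians (0.21, 0.0383) and when genes under the 50th percentile of brightness were not tested (0.0440). With the day as a block it was not (adjusted p = 0.152), nor without both pools of day 7 (0.363). Of the 9 fits without 1 pool, 1 called it, with adjusted p up to 0.196 in the others.

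On day 7 Aldh3a2 was 0.23 above the control mean (adjusted p = 0.0466) and on day 14 also 0.23 above it (adjusted p = 0.0102). The day 7 call was lost without any one of the control pools (adjusted p = 0.0808 to 0.118). The late difference exceeded the early one by 0.11 (adjusted p = 0.781). Aldh3a1, its neighbour on chromosome 11 with no annotated gene between them, is the aldehyde dehydrogenase of cornea and stomach and was dim in these scrapings. It read 4.31 to 4.43 in control pools and 4.43, 4.46, 4.43 and 4.67 in heme pools, and with no filter its day 14 difference was 0.28 (adjusted p = 0.037).

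Beside 0.669% called over all genes tested, 3 of 16 tested genes in the steps around fatty aldehydes and sphingolipids rose and 0 fell. They were Cyp4a10, a fatty acid hydroxylase (2.04, adjusted p = 0.0165), Cyp4f16, of the same enzyme family (0.31, adjusted p = 0.0225), and Elovl6, which elongates fatty acids (0.32, adjusted p = 0.0283). Sgpl1, the sphingosine phosphate lyase that yields the fatty aldehyde used by Aldh3a2, was at 0.35 with an adjusted p of 0.0829, and Far1 and Far2, which make fatty alcohols, were at -0.10 and 0.03 (adjusted p = 0.305 and 0.78). Agmo was the lowest of this list, at -0.50 (adjusted p = 0.17). The list median was 0.05.

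Of 16 other tested genes that clear lipid aldehydes, 3 rose and 0 fell (0.669% of all genes tested were called), with a median of 0.15. The carbonyl reductase Cbr1 rose by 0.43 (adjusted p = 0.0187), beside the larger rises of Akr1b8 (1.78) and Cbr3 (1.51). Gsta4, the glutathione transferase with a preference for the lipid aldehyde 4-hydroxynonenal, was at 0.08 (adjusted p = 0.394) and the prostaglandin reductase Ptgr1 at 0.28 (adjusted p = 0.218).

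The mitochondrial enzymes Aldh2 and Aldh1b1 were bright and nearly level between the diets. Aldh2, which oxidises acetaldehyde and lipid aldehydes (probeset 10533345, chromosome 5), read 10.83, 10.89, 10.85, 10.83 and 10.87 in control and 10.84, 10.87, 10.83 and 10.73 in heme pools. The difference was -0.04 (95% interval -0.11 to 0.04, adjusted p = 0.555). Aldh1b1, a related mitochondrial enzyme known from crypt progenitors (probeset 10504606, chromosome 4), read 9.42, 9.49, 9.49, 9.42 and 9.42 in control and 9.41, 9.42, 9.38 and 9.26 in heme pools, a difference of -0.08 (95% interval -0.17 to 0.01, adjusted p = 0.329). For both genes the heme pool of day 14 was the lowest of the 9.

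On day 14 both were called lower than the controls, Aldh1b1 by -0.19 (adjusted p = 0.0274) and Aldh2 by -0.13 (adjusted p = 0.0424). The array of that pool also had the lowest median of the 9, 5.895 against 5.923 to 5.963. With arrays centred on their medians both calls were lost (-0.14 and -0.08, adjusted p = 0.0739 and 0.219). Aldh2 lost its call as well without the control pools of day 4, 7 or 14 (adjusted p = 0.0599 to 0.0726) and with no intensity trend in the model (0.0865).

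Aldh1l1 converts 10-formyltetrahydrofolate to tetrahydrofolate and carbon dioxide, and was the one gene lower on heme with no overlap. Its probeset (10540034, chromosome 6) read 9.17, 8.92, 8.93, 8.96 and 9.04 in control and 8.85, 8.70, 8.70 and 8.88 in heme pools. The day 0 control was the highest, and the gap between the highest heme and the lowest control pool was small. The means were 8.78 ± 0.09 (SD, n = 4) and 9.00 ± 0.10 (SD, n = 5), and the difference of -0.22 (SE 0.06, 95% interval -0.36 to -0.09) did not pass over all genes (adjusted p = 0.156). Same-day differences were -0.07, -0.23, -0.26 and -0.16 on days 2, 4, 7 and 14. Of 18 tested genes of the folate one-carbon steps around it, 0 were called in limma, beside 0.669% of all genes tested. The list median was 0.007, and its largest difference was that of Slc46a1, at -0.745 (adjusted p = 0.195).

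Aldh7a1, which oxidises the semialdehyde of lysine breakdown and betaine aldehyde (probeset 10458960, chromosome 18), had the difference nearest to 0 of the 9 tested. It read 7.69, 7.81, 7.79, 7.84 and 7.82 in control and 7.78, 7.76, 7.79 and 7.79 in heme pools. The difference was -0.01 (95% interval -0.10 to 0.08, adjusted p = 0.914). Of 14 tested genes in the lysine, choline and carnitine steps around Aldh7a1 and Aldh9a1, 1 rose and 0 fell, beside 0.669% called over all genes tested. The gene that rose was Slc22a5, the carnitine transporter OCTN2 (0.53, adjusted p = 0.0113). The list median was 0.000, and the choline dehydrogenase Chdh and the betaine-using Bhmt were at -0.05 and 0.02 (adjusted p = 0.686 and 0.858).

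**Figure D3:**
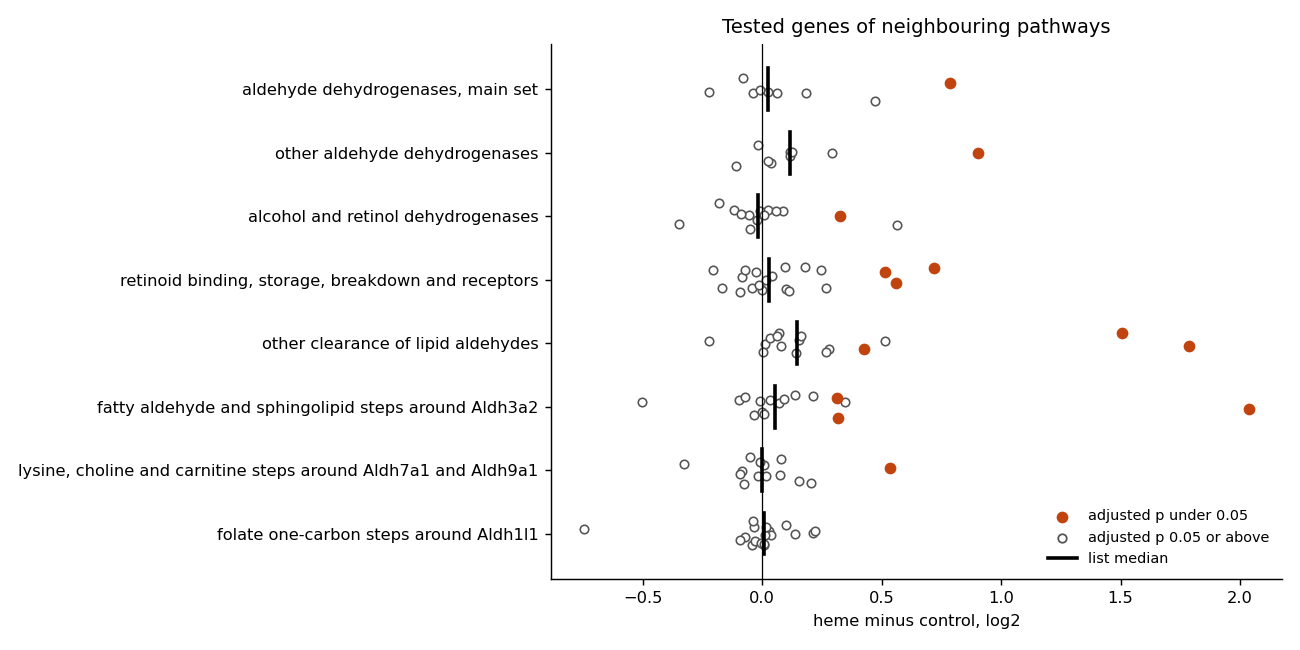
Heme minus control difference in log2 (horizontal axis) for each tested gene of the aldehyde dehydrogenases and of the lists around them (rows, points spread vertically for legibility), filled where the adjusted p was under 0.05, with a vertical bar at each list median. The medians lie between -0.02 and 0.15, and all filled points are to the right of 0.

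The calls of the 11 genes on these neighbouring lists also depended on single pools. Without 1 pool at a time, Retsat stayed called in all 9 fits, and Akr1b8 and Slc22a5 lost the call without the control pool of day 4. The other 8 lost it in 5 to 7 of the 9 fits, always among them those without the control pool of day 4 and without the heme pool of day 7. Scarb1, Cyp4a10, Cyp4f16 and Slc22a5 were not called with the day as a block (adjusted p = 0.0655, 0.0616, 0.0943 and 0.0583).

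By heme day, 0 of the 9 genes were called on days 2 and 4, 2 on day 7 (Aldh3a2 and Aldh9a1) and 5 on day 14 (Aldh1a1, Aldh3a2 and Aldh9a1 higher, Aldh1b1 and Aldh2 lower). The shares of all genes called by limma on those days were 0% (1385 at an unadjusted p under 0.05), 0.00669%, 1.63% and 27.1%. Each day has a single heme pool that is assumed to vary like the controls. On day 14, 1686 genes were called higher and 2359 lower, a share higher of 41.7%, and with arrays centred on their medians 2260 were higher and 1683 lower, 57.3%, while the median difference of all genes went from -0.001 to 0.048. With that centring 3 of the 9 genes were called on day 14, all higher.

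**Figure D4:**
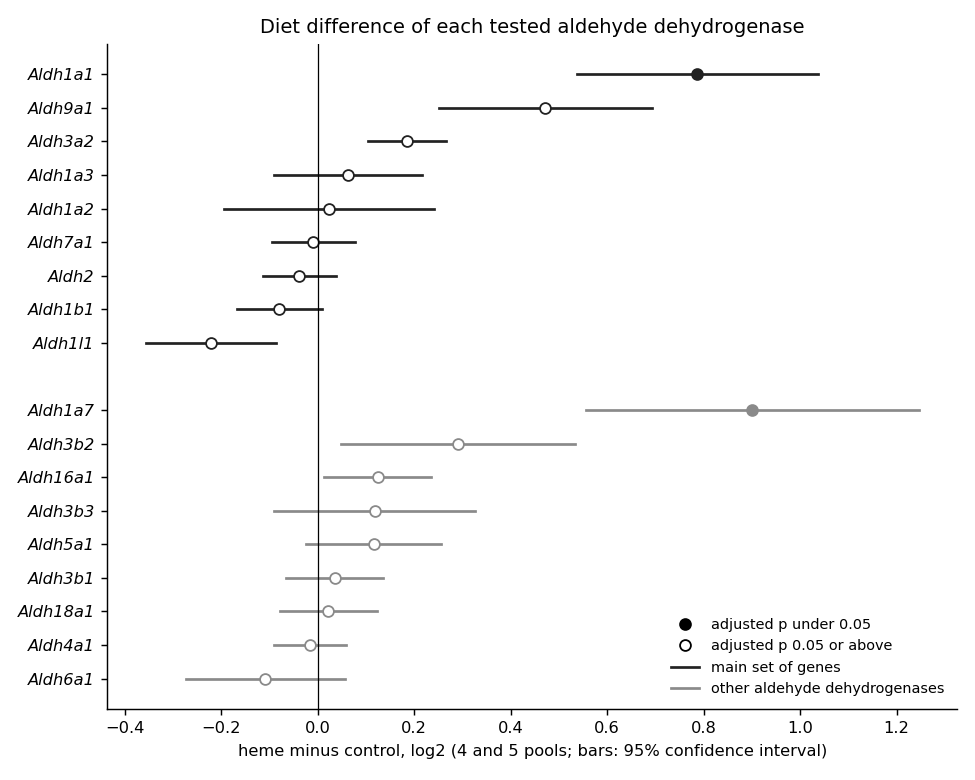
Difference between the diets in log2 (horizontal axis; mean of 4 heme pools minus mean of 5 control pools) for the 9 tested genes of the 10 (black) and 9 other aldehyde dehydrogenases (grey), with 95% confidence intervals as bars and filled points where the adjusted p was under 0.05. Aldh1a1 at 0.79 and Aldh1a7 at 0.90 are the filled points, and the bars of Aldh9a1, Aldh3a2, Aldh3b2 and Aldh16a1 also lie to the right of 0, that of Aldh1l1 to the left.

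Of the 9 other aldehyde dehydrogenases tested, 1 rose (Aldh1a7) and 0 fell, beside 0.669% called over all genes tested. Their median was 0.12. Aldh3b2, which sits with Aldh3b3 among lipid aldehyde dehydrogenases bound to membranes, read 6.69 to 6.93 in control and 6.95, 6.94, 7.05 and 7.48 in heme pools, a difference of 0.29 that was not called (adjusted p = 0.245). On day 14 alone it was 0.67 above the controls (adjusted p = 0.00963). Aldh3b3 was 0.38 above them that day (adjusted p = 0.026), which was lost with the mean of its probesets (0.29, adjusted p = 0.0625) and without the control pools of day 0 or 4 (0.0524 and 0.0567). Aldh6a1, the methylmalonate semialdehyde dehydrogenase of valine breakdown, was at -0.31 that day (adjusted p = 0.0179) and at -0.11 between the diets (adjusted p = 0.441). Aldh16a1, Aldh5a1, Aldh3b1 and Aldh18a1 differed by 0.12, 0.12, 0.04 and 0.02 between the diets (adjusted p = 0.267, 0.361, 0.687 and 0.807). Aldh4a1 was listed at the same 7.07 in all 5 control pools, so those pools give it no spread, and it differed by -0.02 between the diets (adjusted p = 0.804). Aldh1l2 and Aldh8a1 were too dim to be tested.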

How the data were processed

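Gene expression was measured on Affymetrix whole-transcript arrays. The deposited log2 values were made by the authors with RMA, per the submitters' processing notes; its version and the genome build are not given in the sources used here. The method subtracts background, brings arrays to 1 distribution and summarises each probeset on the log2 scale, so a shift common to all genes cannot be seen. Of 35556 probesets, 21789 carried 1 gene symbol and were used; 1621 carried several and 12146 none. The probeset with the highest mean stood for a gene, and genes whose mean was under the 25th percentile were not tested.

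Tests used limma 3.58.1 in R 4.3.3 (lmFit, eBayes with an intensity trend) with Benjamini-Hochberg adjustment over 14953 genes, tested on simulated data. Tables and figures used Python 3.11.15 and matplotlib 3.10.9. The diet comparison set 4 heme against 5 control pools. Single days used the control spread (1 pool against 5), late minus early used the 8 pools of days 2 to 14, and the slope the 5 control pools on log2(day + 1). Arrays have no read depth; their number limits the precision. As the labels share the day, a fit with the day as a block was also made; deviations of same-day pools correlated with r = 0.651, -0.005, 0.333 and 0.168 on days 2, 4, 7 and 14.

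The genes, the lists and the tests were chosen with earlier results of these data known. The rule named all aldehyde dehydrogenases, up to 3 called genes per direction from each other list (other list genes were named after their values were seen), and the 3 genes most correlated with each called gene. Promoters came from RefSeq (GRCm38.p6); of the 10 genes, 6 had an entry.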

Additional observations from a re-analysis of the deposited data

Results flagged for a closer look

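Within 1 group of pools, a value was picked out when its gap to the nearest other pool was too large a share of the group's range. Chance does that in about 1 of 20 groups when no values are tied. Among the 42 groups looked at (21 aldehyde dehydrogenases on 2 diets), 6 values were picked out. Some of these groups hold tied values, which make a pick easier, so the 6 cannot be set against that rate. Aldh1a3 stood at 6.135 log2 in the heme pool of day 14, with the next pool at 5.960. Aldh3a1 stood at 4.671 in the same pool, with the next at 4.463, both below the brightness needed for a test. Aldh1l2, also dim, stood there at 4.809, with the other 3 heme pools all at 4.691. Aldh3a2 in the heme pool of day 2 was low, at 10.027 with the next at 10.153. Aldh7a1 in the control pool of day 0 was low, at 7.686 with the next at 7.793. Aldh8a1, the dimmest, stood at 3.463 in the heme pool of day 2, with the other 3 heme pools all at 3.441. Of the 6 values, 3 lie in the heme pool of day 14, and the cause was not tested.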

How the results depend on the processing

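Without 1 pool, the number of the 9 genes called between the diets ranged from 0 to 3 (1 with all pools), and the number of all genes called from 30 to 251 (100 with all pools). The first count was 2 of the 7 genes left by the filter at the 50th percentile, and 2 of the 9 with centred arrays, with the day as a replicate block or without both pools of day 2. Without both pools of day 7 it was 0 of the 9, and 0 of all genes. The block left 77 genes called in all. On day 7 the count went from 2 to 0 with no filter on dim genes, with no intensity trend and without any one control pool (range 0 to 0), and on day 14 from 5 to 3 with centred arrays. The differences that changed sign were near 0, Aldh1a2 at -0.031 with the block and -0.031 to 0.082 without 1 pool, Aldh7a1 at 0.015 with centred arrays and -0.035 to 0.003 without 1 pool, Aldh4a1 at 0.007 with centred arrays, and Aldh18a1 at -0.002 with the block and -0.002 to 0.047 without 1 pool. Of the values recomputed, 642 kept their direction and side of the threshold or, for counts, stayed within 1.5 times the main count. Many of these 642 had no call to lose, so the number does not speak for how stable the calls were. A further 127 lost a call or were lower counts beyond that factor, 12 gained a call or were higher counts, and 9 changed sign. With 1 pool per diet and day, no difference on a single day has a replicate of its own.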
